A study of Mus musculus with 6 samples.

Results

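The Schwann cell lineage genes described here are 8 mouse genes of immature and myelinating Schwann cells, Ngfr, Sox10, Erbb3, Egr2, Prx, Mbp, Pmp22 and Cdh19. They were chosen by symbol in a table of 54532 genes counted in quadriceps muscle, and all 8 were found and passed the filter on low counts, among 14715 genes that did. The 3 Myf5Cre-Pcyt2 libraries come from pups of the genotype Myf5Cre-Pcyt2 flox/flox, in which Cre is driven from Myf5, a gene of muscle precursors. The 3 control libraries come from Pcyt2 flox/flox pups, so the floxed alleles are shared by both groups. All pups were on chow and were sampled at postnatal day 10. The labels do not say that the controls carry Cre, so loss of Pcyt2 and the presence of Cre cannot be told apart, and nothing in them places the pups in different litters. The p-values therefore describe variation among 6 libraries, part of which may be technical.

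Schwann cells are the glia of peripheral nerve and reach muscle along motor and sensory axons. They arise from the neural crest, pass through an immature stage that expresses Ngfr, and then either wrap several thin axons or myelinate a single axon. Sox10 is needed throughout the lineage, neuregulin from axons acts on the receptor pair of ErbB2 and ErbB3, and Egr2 switches on the genes of compact myelin. In young rodent muscle nerve myelination is under way in the days after birth. A whole quadriceps holds mostly muscle fibres, with nerve branches as a small part, and in such bulk RNA a change in the number of cells of a type and a change in RNA per cell cannot be told apart.

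Libraries held between 17775898 and 20446920 counts. The labelled tissue was checked against myofibre markers, which were abundant in all libraries: the muscle creatine kinase gene Ckm had 10727 ± 1122 CPM in Myf5Cre-Pcyt2 and 20553 ± 4501 CPM in control (SD, n = 3 per group; CPM is counts per 1000000 of a library's TMM-scaled total). Pcyt2, which encodes the enzyme that makes CDP-ethanolamine, had counts of 280, 328 and 272 in Myf5Cre-Pcyt2 and 353, 277 and 277 in control. Its scaled levels were 14.9, 14.3 and 12.6 CPM in Myf5Cre-Pcyt2 and 18.7, 16.1 and 16.0 CPM in control, without overlap. This difference, −0.28 on the log2 scale (SE 0.11), did not pass the threshold of 0.05 (adjusted p = 0.0944 by edgeR's quasi-likelihood test with Benjamini-Hochberg adjustment, used for every adjusted p given for a gene). Which exons are floxed is not stated in the labels, and reads outside them would still be counted. The log2 fold change of Myf5 was 0.13 ± 0.18 (SE; adjusted p = 0.632).

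The Schwann cell lineage genes were higher in Myf5Cre-Pcyt2 quadriceps. Of the 8, Ngfr, Sox10, Prx, Mbp, Pmp22 and Erbb3 rose, 0 fell, and Egr2 and Cdh19 did not pass. The count of 0 lower was the same at an unadjusted p under 0.05 and with DESeq2 and limma-voom, and each of these tools called 6 higher. Over all tested genes 18.6% were called, 9.02% higher and 9.59% lower. The 8 were chosen with earlier results of these data known, so setting them beside all genes is a description and not a test. The median log2 fold change of the 8 was 0.58, against −0.002 over all tested genes, and all 8 values were positive, against 49.8% of tested genes. In 7 of the 8 every Myf5Cre-Pcyt2 library lay above every control library, an order found in 19.9% of tested genes. The summed level of the 8 genes was 392, 511 and 420 CPM in Myf5Cre-Pcyt2 and 320, 253 and 299 CPM in control, without overlap. Over the 6 libraries Pmp22 made up 51.0 to 56.4% of this sum and Mbp 19.4 to 22.7%, so it mostly follows Pmp22 and Mbp. Without Myf5Cre-Pcyt2 replicate 2, which was the highest of all 6 libraries in 5 of the 8 genes, 3 of the 8 passed, and these were Ngfr, Sox10 and Prx. Without control replicate 2, the lowest of all 6 libraries in 4 of the 8, 4 passed.

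**Figure D1:**
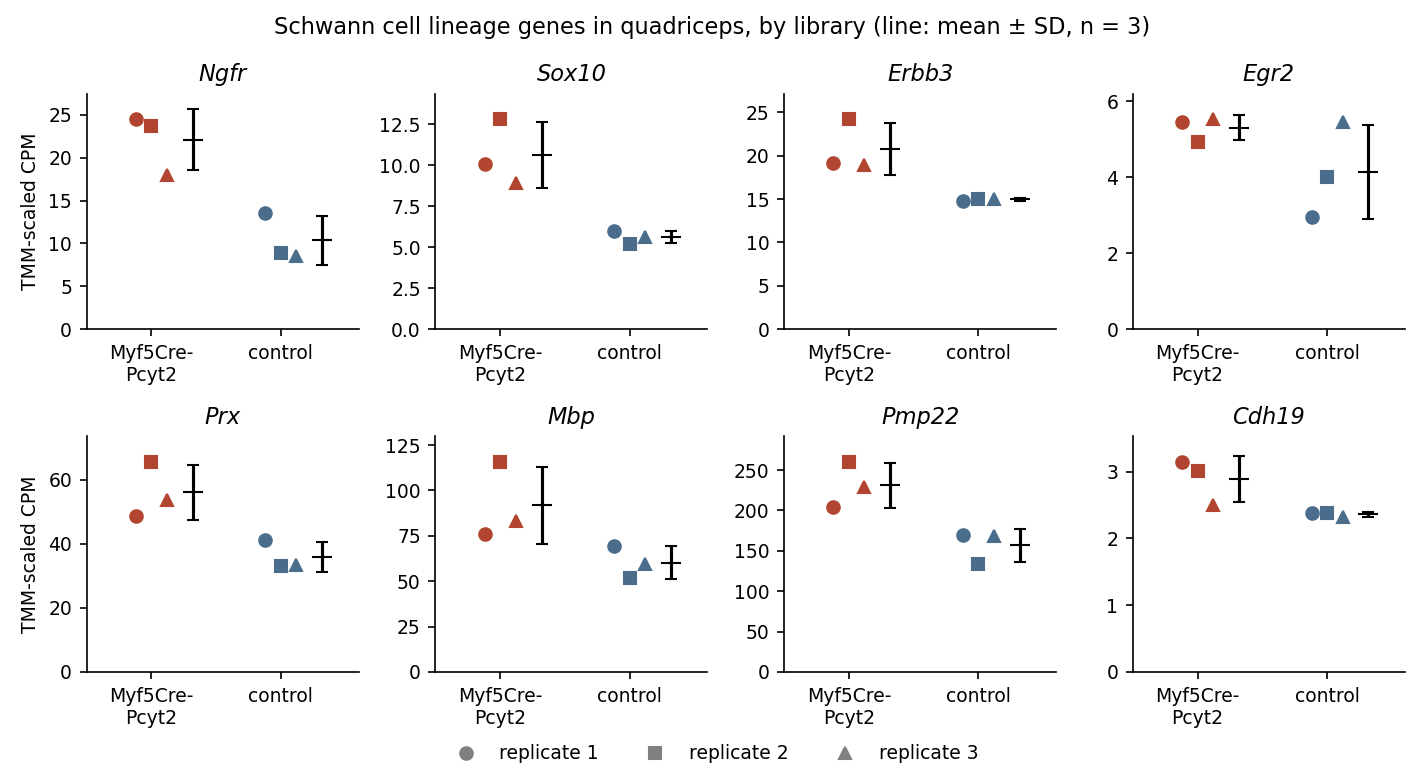
Level of each of the 8 genes in TMM-scaled CPM (vertical axis, starting at 0) in the 3 Myf5Cre-Pcyt2 and the 3 control libraries, with symbols for the replicate number and the mean ± SD beside them. The groups overlap only in Egr2, where control replicate 3 had 5.45 CPM, and Myf5Cre-Pcyt2 replicate 2 is the top point for Sox10, Erbb3, Prx, Mbp and Pmp22.

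Sox10 (ENSMUSG00000033006, GRCm38 chromosome 15, 79154908 to 79165240, minus strand) encodes the SRY-related factor that specifies and maintains glia of the neural crest. It had 10.1, 12.8 and 8.92 CPM in Myf5Cre-Pcyt2, against 5.98, 5.22 and 5.62 CPM in control, from counts of 189, 294 and 193 against 113, 90 and 97. The control libraries were close together, and the lowest Myf5Cre-Pcyt2 library lay above all of them. Sox10 was thus 1.89-fold higher (log2 fold change 0.92, SE 0.16, adjusted p = 0.00554), with a 95% interval of 1.48 to 2.42.

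Egr2 (ENSMUSG00000037868, chromosome 10, 67535475 to 67542188, plus strand) encodes Krox20, the zinc-finger factor that drives myelin genes, and is also induced in some immune cells. Its levels were 5.45, 4.93 and 5.54 CPM in Myf5Cre-Pcyt2, against 2.96, 4.002 and 5.45 CPM in control. The control libraries spread more widely than the Myf5Cre-Pcyt2 libraries, and control replicate 3 lay within the Myf5Cre-Pcyt2 range. Its log2 fold change of 0.36 (SE 0.21, adjusted p = 0.252) did not pass, and the 95% interval of the fold ran from 0.928 to 1.78. The value rested on single control libraries, at 0.17 without control replicate 1 (adjusted p = 0.573) and 0.61 without control replicate 3 (adjusted p = 0.0703), and was 0.57 when libraries were scaled by their totals alone (adjusted p = 0.0894).

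Among the receptors, Ngfr had the largest fold of the 8 genes. Ngfr (ENSMUSG00000000120, chromosome 11, 95568818 to 95587735, minus strand) encodes the p75 neurotrophin receptor, a surface marker of immature and non-myelinating Schwann cells that other mesenchymal cells can also express. It had 24.6, 23.8 and 18.02 CPM in Myf5Cre-Pcyt2, against 13.6, 8.93 and 8.52 CPM in control, from counts of 460, 544 and 390 against 257, 154 and 147. Control replicate 1 was the highest control library and still lay below all 3 Myf5Cre-Pcyt2 libraries. This was a 2.13-fold difference (log2 fold change 1.09, SE 0.18, adjusted p = 0.00467) with a 95% interval of 1.61 to 2.80.

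Erbb3 (ENSMUSG00000018166, chromosome 10, 128567523 to 128589652, minus strand) encodes the receptor that binds neuregulin on Schwann cells and signals through its partner ErbB2. Its levels were 19.2, 24.3 and 18.9 CPM in Myf5Cre-Pcyt2, against 14.8, 15.0 and 15.1 CPM in control. The control libraries were nearly equal, and replicate 2 stood above the other Myf5Cre-Pcyt2 libraries. Its rise was 0.47 on the log2 scale (SE 0.11, adjusted p = 0.0177). Erbb3 did not pass without Myf5Cre-Pcyt2 replicate 2 (adjusted p = 0.0717) or without control replicate 2 (0.0534), over a range of 0.00103 to 0.0717 across 14 alternatives.

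Cdh19 (ENSMUSG00000047216, chromosome 1, 110888326 to 110977584, minus strand) encodes a cadherin of Schwann cell precursors and mature Schwann cells. It was the least abundant of the 8, with 3.15, 3.01 and 2.49 CPM in Myf5Cre-Pcyt2, against 2.38, 2.38 and 2.32 CPM in control. The groups did not overlap, but the lowest Myf5Cre-Pcyt2 library was close to the highest control library. Its log2 fold change of 0.29 (SE 0.19, adjusted p = 0.308) did not pass, with counts of 40 to 69 per library and a 95% interval of 0.913 to 1.63 for the fold.

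The 3 genes of the myelin sheath rose by similar amounts. Pmp22 (ENSMUSG00000018217, chromosome 11, 63128982 to 63159547, plus strand) encodes the tetraspan protein of peripheral compact myelin whose dosage is altered in inherited neuropathies, and it is also expressed outside nerve. It had 204, 260 and 229 CPM in Myf5Cre-Pcyt2, against 169, 133 and 169 CPM in control. All Myf5Cre-Pcyt2 libraries were above all control libraries, and control replicate 2 was the lowest. On the log2 scale Pmp22 rose by 0.56 (SE 0.12, adjusted p = 0.0133), and without Myf5Cre-Pcyt2 replicate 2 it did not pass (adjusted p = 0.0627, range over the alternatives 6.87e-06, with no filter on low counts, to 0.0627).

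Mbp (ENSMUSG00000041607, chromosome 18, 82475146 to 82585637, plus strand) encodes myelin basic protein, which holds the cytoplasmic faces of myelin together, and the same locus makes golli transcripts in blood cells that a count per gene does not separate. It had 76.1, 115.9 and 83.2 CPM in Myf5Cre-Pcyt2, against 69.6, 51.5 and 59.7 CPM in control. Myf5Cre-Pcyt2 replicate 2 stood far above the other libraries, while Myf5Cre-Pcyt2 replicate 1 was not far above control replicate 1. On the log2 scale Mbp rose by 0.61 (SE 0.16, adjusted p = 0.0246). Mbp did not pass without Myf5Cre-Pcyt2 replicate 2 (0.40, adjusted p = 0.0932), control replicate 2 (0.0932) or control replicate 3 (0.0584), over a range of 4.09e-07 to 0.0932 across the alternatives.

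Prx (ENSMUSG00000053198, chromosome 7, 27499324 to 27520214, plus strand) encodes periaxin, which links the Schwann cell membrane through the dystroglycan complex to the basal lamina. It had 48.8, 65.7 and 53.8 CPM in Myf5Cre-Pcyt2, against 41.2, 33.1 and 33.5 CPM in control. The groups did not overlap, and the highest control library was replicate 1. Prx was 1.56-fold higher (log2 fold change 0.64, SE 0.13, adjusted p = 0.00873), with a 95% interval of 1.29 to 1.90. An antisense gene model, Gm15541, overlaps exons of Prx, and since the strand setting of the counting is not given, reads of the pair cannot be told apart, although Gm15541 itself had only 32 counts in all 6 libraries together. For the other 7 genes the annotation showed no gene with overlapping exons.

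**Figure D2:**
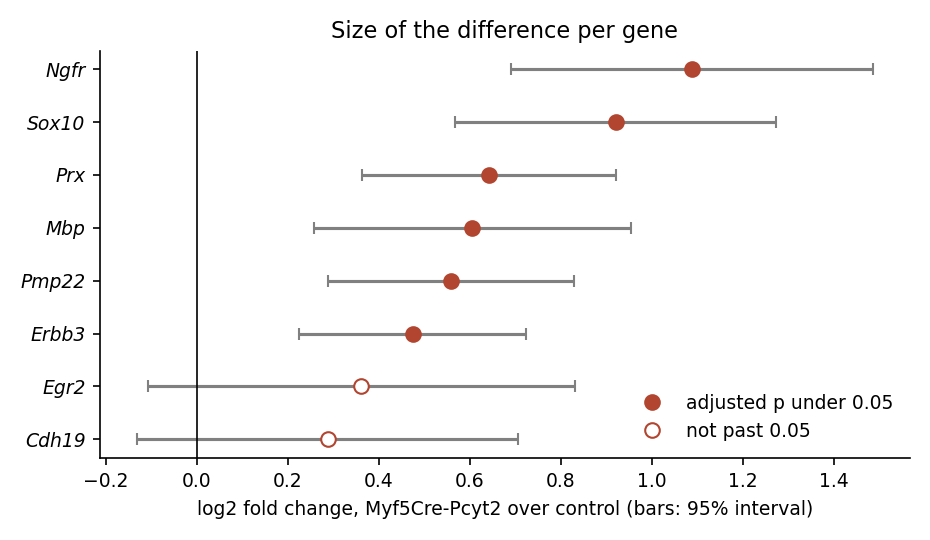
Log2 fold change of Myf5Cre-Pcyt2 over control for each of the 8 genes (horizontal axis), with 95% intervals from the edgeR fit; filled points passed an adjusted p of 0.05. Ngfr and Sox10 are at the top with 1.09 and 0.92, and the intervals of Egr2 and Cdh19 include 0.

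Promoter windows of 300 bases ran from 250 before to 50 after a RefSeq start on GRCm38.p6. They were read for 4 of the 8 members, Ngfr, Egr2, Prx and Pmp22, which had 11 windows in all. No window of Sox10, Erbb3, Mbp or Cdh19 was searched. The 11 windows were searched on both strands for the SOX core sequences ACAAAG and ACAATG and for the EGR sequences GCGTGGGNG and GCGGGGGNG. The 11 are not separate stretches: Egr2 gave 5 and Pmp22 gave 4, and some windows of each of these genes overlap. Of the 11 windows 1 held a match, and it was alone in its window, so no matches overlapped. Over 32851 promoter windows of the same length, 18.7% held ACAAAG, 12.6% held ACAATG, 1.9% held GCGTGGGNG and 6.11% held GCGGGGGNG. The match was GCGGGGGNG at bases 188 to 196 of an Egr2 window. A match is a description of letters and not a site of binding. The windows of Ngfr, which had the largest fold, of Egr2, which held the match (in capitals), and of Prx, a myelin gene that rose, are printed 5′ to 3′ on the gene's strand. They lie at chr11:95587649-95587948 on the minus strand, chr10:67535249-67535548 on the plus strand and chr7:27499074-27499373 on the plus strand.
Ngfr: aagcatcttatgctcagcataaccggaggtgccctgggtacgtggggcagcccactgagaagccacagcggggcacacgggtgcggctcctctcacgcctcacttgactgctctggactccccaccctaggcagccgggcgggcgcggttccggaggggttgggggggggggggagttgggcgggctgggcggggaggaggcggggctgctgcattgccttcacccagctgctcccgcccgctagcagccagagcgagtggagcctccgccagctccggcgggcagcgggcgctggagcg
Egr2: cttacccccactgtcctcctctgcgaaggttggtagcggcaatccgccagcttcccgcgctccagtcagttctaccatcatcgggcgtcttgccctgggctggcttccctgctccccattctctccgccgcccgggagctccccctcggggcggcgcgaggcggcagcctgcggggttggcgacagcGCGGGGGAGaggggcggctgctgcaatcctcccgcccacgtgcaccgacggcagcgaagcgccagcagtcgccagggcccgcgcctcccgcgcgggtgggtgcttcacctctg
Prx: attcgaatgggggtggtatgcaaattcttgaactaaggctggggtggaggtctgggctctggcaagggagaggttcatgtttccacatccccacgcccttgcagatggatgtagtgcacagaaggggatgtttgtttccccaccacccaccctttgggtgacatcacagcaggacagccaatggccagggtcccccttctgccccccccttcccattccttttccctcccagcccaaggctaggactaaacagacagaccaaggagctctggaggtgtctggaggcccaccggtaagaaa
The Ngfr and Prx windows held none of the 4 sequences.

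Per kilobase of annotated exon, the order of levels was led by Pmp22, with 56.6 to 111 CPM per kb over the 6 libraries. Mbp followed with 6.08 to 13.7 and Prx with 5.94 to 11.8 CPM per kb, and although Mbp was above Prx in 6 of 6 libraries their ranges overlapped. Ngfr ranged from 2.47 to 7.13, Erbb3 from 2.46 to 4.04 and Sox10 from 1.71 to 4.21 CPM per kb. Ngfr was above Erbb3 in 5 of 6 libraries: the ranges were apart in Myf5Cre-Pcyt2 and overlapped in control. Erbb3 was above Sox10 in 4 of 6 libraries: the ranges overlapped in Myf5Cre-Pcyt2 and were apart in control. Egr2, with 0.872 to 1.63, and Cdh19, with 0.541 to 0.736 CPM per kb, came last, each with a range below that of the gene before it. Exon lengths were unions over all annotated transcripts, which understates the level of a gene such as Mbp whose transcripts use a small part of the locus.

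The count of each of the other 7 genes was also set against that of Sox10 in the same library. Sox10 itself had a log2 fold change of 0.92, the largest of the 8 after Ngfr. A gene with a smaller rise therefore has a lower ratio in Myf5Cre-Pcyt2, and a lower ratio is not a fall of that gene. Erbb3 had 1.90, 1.89 and 2.12 counts per Sox10 count in Myf5Cre-Pcyt2, against 2.48, 2.88 and 2.68 in control. Mbp had 7.54, 9.02 and 9.33 counts per Sox10 count in Myf5Cre-Pcyt2, against 11.6, 9.87 and 10.6 in control. Cdh19 had 0.312, 0.235 and 0.280 in Myf5Cre-Pcyt2, against 0.398, 0.456 and 0.412 in control. In these 3 genes every Myf5Cre-Pcyt2 library was below every control library, which with 3 libraries per group gives the smallest possible p of 0.1 (exact permutation test of the log2 ratio, two-sided; 0.233 adjusted over the 7 ratios). The ratios of Ngfr, Egr2, Prx and Pmp22 to Sox10 overlapped between the groups, and none of the 7 comparisons could reach 0.05.

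**Figure D3:**
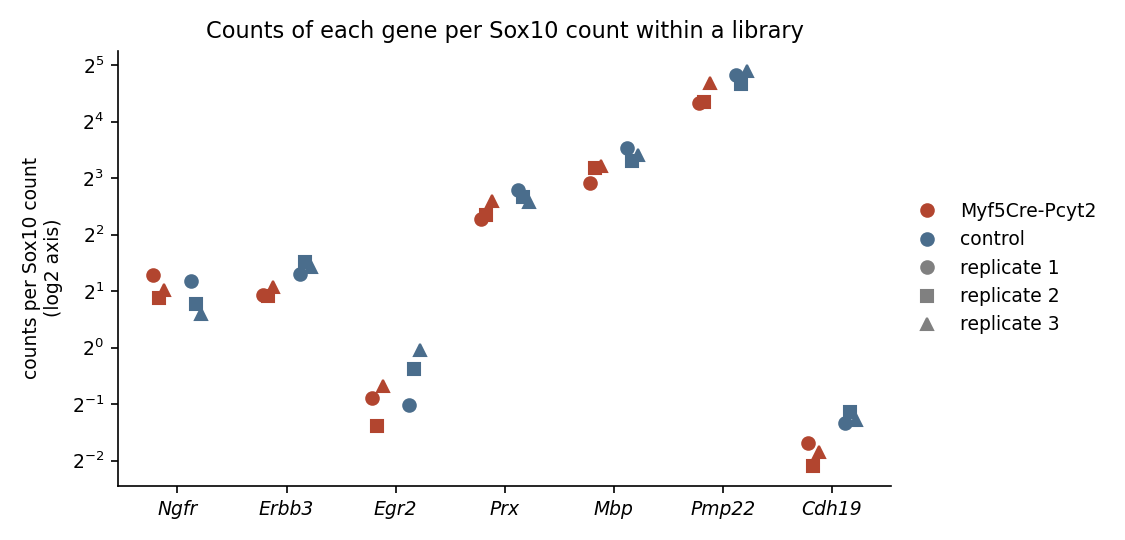
Counts of each gene per Sox10 count in the same library, on a log2 axis, for the 3 Myf5Cre-Pcyt2 and 3 control libraries. For Erbb3, Mbp and Cdh19 the Myf5Cre-Pcyt2 points lie below the control points, and for the other 4 genes the groups overlap. Sox10 itself was higher in Myf5Cre-Pcyt2, which lowers the ratio of a gene that rose less.

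Other genes of the same biology, in 7 lists with 67 genes beside the 8, moved mostly in the same direction. Which cells of the muscle made these RNAs was not tested. The dystroglycan gene Dag1, among those that rose, had means of 747 CPM in Myf5Cre-Pcyt2 and 588 CPM in control, above each of the 8. Of 59 tested, 20 rose, 1 fell and 38 did not pass, and 51 had a positive log2 fold change, with a median of 0.41. The 20 are 33.9% of the 59, where 9.02% of all tested genes were called higher, 18.6% were called in either direction and 49.8% were positive. The lists were chosen with earlier results of these data known, so these shares are a description and not a test. List by list the share called higher was lowest for the lipid enzymes (0), the neurotrophin genes (14.3%) and the transcription factors (16.7%). The 20 became 5 when Myf5Cre-Pcyt2 replicate 2 was left out, 9 when replicate 3 of that group was, 8 without control replicate 2 and 13 without control replicate 3, and 31 when libraries were scaled by their totals alone. In the lists where 0 fell by edgeR, 0 also fell at an unadjusted p under 0.05, with DESeq2 and with limma-voom.

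Of 12 tested genes for myelin proteins beside the 8, 6 rose, 0 fell and 6 did not pass (median log2 fold change 0.50). Gjc3, the connexin 29 gene of myelinating glia, had 16.4, 18.9 and 14.9 CPM in Myf5Cre-Pcyt2, against 10.3, 8.88 and 9.91 CPM in control (log2 fold change 0.79, SE 0.12, adjusted p = 0.00387). The groups did not overlap in Gjc3, and Drp2, a partner of periaxin in the dystroglycan complex, rose by 0.47 (SE 0.10, adjusted p = 0.0109), a call lost when Myf5Cre-Pcyt2 replicate 2 was left out (0.0541; 0.000951 to 0.0541 over the alternatives). Of 4 genes for myelin lipid enzymes, 0 passed in either direction, with a median of 0.49. The one with the smallest p, Ugt8a, which makes galactosylceramide, stood at 0.69 (SE 0.25, adjusted p = 0.0747) on the log2 scale. It was at 0.42 with Myf5Cre-Pcyt2 replicate 2 left out (adjusted p = 0.301), and it passed with library totals alone as scaling (0.0391) and with no filter on low counts (0.00150), over a range of 0.00150 to 0.301. At an unadjusted p under 0.05 there were 2 higher and 0 lower, and DESeq2 and limma-voom called 0.

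Of 12 tested transcription factor genes of the lineage, 2 rose, 0 fell and 10 did not pass (median 0.19). Pou3f1, the promyelinating factor Oct6, had 8.22, 12.5 and 9.15 CPM in Myf5Cre-Pcyt2, against 6.25, 4.23 and 5.33 CPM in control (log2 fold change 0.92, SE 0.20, adjusted p = 0.0117). Its relative Pou3f2 was rare, with 0.908, 0.961 and 0.647 CPM in Myf5Cre-Pcyt2, against 0.423, 0.232 and 0.116 CPM in control (log2 fold change 1.66, SE 0.44, adjusted p = 0.0261). Both calls were lost when Myf5Cre-Pcyt2 replicate 2 was left out, with adjusted p of 0.0570 for Pou3f1 (range over the alternatives 4.92e-07 to 0.0570) and 0.106 for Pou3f2 (0.00656 to 0.106), and Pou3f2 also did not pass without Myf5Cre-Pcyt2 replicate 1 (0.0600), control replicate 2 (0.0866) or control replicate 3 (0.0779), nor with DESeq2 (0.0727).

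Of 7 tested genes of immature or non-myelinating Schwann cells, 3 rose, 0 fell and 4 did not pass (median 0.52). Foxd3, a neural crest factor, had 8.76, 8.82 and 8.32 CPM in Myf5Cre-Pcyt2, against 3.81, 4.06 and 5.91 CPM in control (log2 fold change 0.91, SE 0.18, adjusted p = 0.00805). Gap43, a growth-associated protein of immature glia and growing axons, rose by 0.73 (SE 0.15, adjusted p = 0.0101), and the call was lost when Myf5Cre-Pcyt2 replicate 2 was left out (0.0561; 3.07e-05 to 0.0561 over the alternatives). L1cam, an adhesion molecule of unmyelinated contacts, rose by 0.73 (SE 0.23, adjusted p = 0.0473) and did not pass in 7 of 14 alternatives (range 0.0109 to 0.186).

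Of 10 genes for contact with the axon or the matrix, 5 rose, 0 fell and 5 did not pass (median 0.46). The 3 with the smallest p were Adam22, the receptor of the Schwann cell ligand Lgi4, with a log2 change of 0.51 (SE 0.12, adjusted p = 0.0185), and the nodal adhesion genes Nfasc with 0.96 (SE 0.25, adjusted p = 0.0243) and Nrcam with 1.01 (SE 0.26, adjusted p = 0.0248). In the same gene order, their adjusted p was 0.0751, 0.112 and 0.114 when Myf5Cre-Pcyt2 replicate 2 was left out, with replicate 3 of that group left out it was 0.0681, 0.0526 and 0.0607, and without control replicate 2 it was 0.0588, 0.0839 and 0.0732. Nfasc did not pass without control replicate 3 either (0.0585). The lowest over the alternatives was 0.00930, 0.00115 and 1.38e-05.

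Of 7 tested genes of the neuregulin and ErbB system beside Erbb3, 3 rose, 0 fell and 4 did not pass (median 0.30). The ErbB3 partner Erbb2 had 16.7, 20.3 and 18.4 CPM in Myf5Cre-Pcyt2, against 11.6, 9.51 and 11.4 CPM in control (log2 fold change 0.77, SE 0.12, adjusted p = 0.00386). Egfr, the related epidermal growth factor receptor gene, rose by 0.62 (SE 0.10, adjusted p = 0.00417), and Erbb4, another neuregulin receptor gene, by 0.82 (SE 0.20, adjusted p = 0.0182). Erbb4 did not pass without Myf5Cre-Pcyt2 replicate 2 (0.0679), Myf5Cre-Pcyt2 replicate 3 (0.0747) or control replicate 2 (0.069), over a range of 0.000113 to 0.0747. The ligand genes Nrg1 and Nrg3 stayed under the filter on low counts, with at most 5 counts in any library.

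Of 7 tested neurotrophin ligand and receptor genes beside Ngfr, 1 rose, 1 fell and 5 did not pass (median −0.01). Ntf5, the neurotrophin-4 gene, which muscle fibres make, was the gene that fell, with 1.92, 2.71 and 2.77 CPM in Myf5Cre-Pcyt2, against 4.29, 7.14 and 5.39 CPM in control (log2 fold change −1.17, SE 0.23, adjusted p = 0.00887). Ntrk2, which encodes the receptor of BDNF and neurotrophin-4, rose by 0.41 (SE 0.13, adjusted p = 0.0485), with overlapping groups, and did not pass in 8 of 14 alternatives (range 0.00307 to 0.182). The groups of Ntf5 did not overlap.

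**Figure D4:**
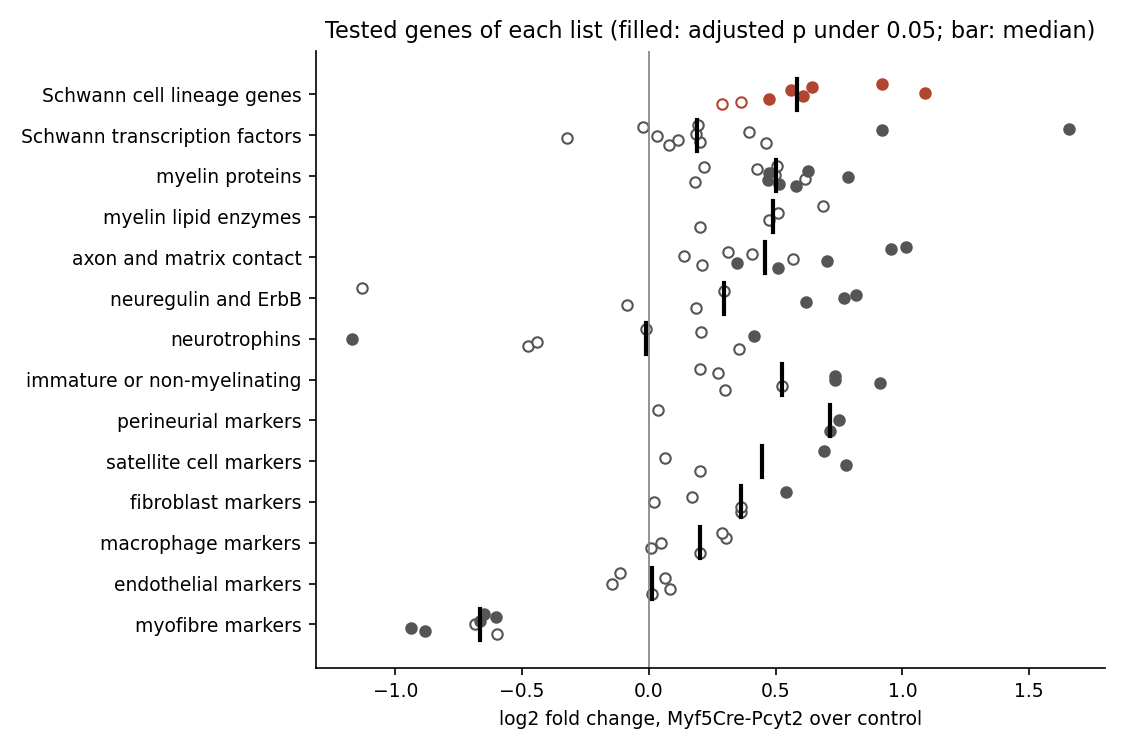
Log2 fold change of Myf5Cre-Pcyt2 over control (horizontal axis) of every tested gene of each list, filled where the adjusted p was under 0.05, with a bar at the list's median. The 8 lineage genes (top row, median 0.58) and the myelin proteins (median 0.50) lie right of 0, the endothelial markers (median 0.01) lie around 0, and all 7 myofibre markers (median −0.67) lie left of 0.

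Markers of other cell types were measured beside these genes. All 7 myofibre markers had negative log2 fold changes (median −0.67), of which 5 passed, and their summed level was 95473 to 124770 CPM in Myf5Cre-Pcyt2 and 154550 to 213110 CPM in control. Within both groups replicate 2 stood at the end: the myofibre sum was lowest in Myf5Cre-Pcyt2 replicate 2, where the sum of the 8 lineage genes was highest, and highest in control replicate 2, where the lineage sum was lowest. The share of counts in the 10 top genes was likewise lowest in Myf5Cre-Pcyt2 replicate 2 (16.8%; 19.6 and 17.7% in replicates 1 and 3) and highest in control replicate 2 (25.7%; 22.1 and 21.1% in replicates 1 and 3). Ckm, the fast alpha-actinin gene Actn3 and the fast troponin gene Tnni2 fell by 0.94, 0.88 and 0.60 on the log2 scale (SE 0.20, 0.20 and 0.16; adjusted p = 0.0123, 0.0143 and 0.0250). None of these 3 passed without Myf5Cre-Pcyt2 replicate 2 (0.0740, 0.0761 and 0.116) or replicate 3 (0.0717, 0.0696 and 0.137), and Tnni2 did not pass without control replicate 2 (0.0595); the lowest over the alternatives was 9.01e-10, 4.59e-08 and 3.70e-06. Of 4 satellite cell markers 2 rose, Cdh15 by 0.78 on the log2 scale (SE 0.09, adjusted p = 0.00136) and Pax7 with 0.69 (SE 0.11, adjusted p = 0.00421). The list's summed level was 124 to 129 CPM in Myf5Cre-Pcyt2 and 83.1 to 97.8 CPM in control. Of 3 perineurial markers, for the sheath around nerve bundles, Cldn1 and Gli1 rose with 0.71 (SE 0.14, adjusted p = 0.00792) and 0.75 (SE 0.16, adjusted p = 0.0122), and the summed level was 28.4 to 34.0 CPM in Myf5Cre-Pcyt2 and 20.4 to 22.5 CPM in control. The remaining marker, Slc2a1, did not pass (0.04, SE 0.13, adjusted p = 0.866), and its groups overlapped. The Gli1 call was lost when Myf5Cre-Pcyt2 replicate 2 was left out (0.0611; 0.000366 to 0.0611 over the alternatives). Neither Cldn1 nor Gli1 is found only in that sheath.

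Of 5 fibroblast markers 1 rose, Pdgfra with 0.54 (SE 0.08, adjusted p = 0.00323), and the list's summed level was 11517 to 13130 CPM in Myf5Cre-Pcyt2 and 8372 to 10904 CPM in control. In this list 2 were higher at an unadjusted p under 0.05 by edgeR, DESeq2 called 2 higher and limma-voom 1. Of 5 macrophage markers 0 passed by edgeR, DESeq2 or limma-voom, and 2 were higher at an unadjusted p under 0.05 (median 0.20), with Mrc1 at 0.29 (SE 0.10, adjusted p = 0.0718; it passed with library totals alone as scaling at 0.0136, with no filter at 0.0469 and without control replicate 3 at 0.0227, over a range of 0.0136 to 0.213) and a summed level of 136 to 155 CPM in Myf5Cre-Pcyt2 and 113 to 136 CPM in control. Of 5 endothelial markers 0 passed by any of these tools or at an unadjusted p under 0.05 (median 0.01), with Pecam1 at −0.14 (SE 0.10, adjusted p = 0.325), whose sign turned with library size alone as the scaling, and a summed level of 696 to 791 CPM in Myf5Cre-Pcyt2 and 658 to 829 CPM in control. The share of myofibre, satellite cell, perineurial and fibroblast RNA in the difference of the Schwann cell genes was not tested.

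Markers of other cell types, among them those that use parts of this gene set, were also measured. Of 6 oligodendrocyte markers, Mog, Opalin, Ermn and Olig2 had 0 counts in every library, which allows up to 3 counts in each for counting error, and the summed level of the list was 0 to 0.267 CPM in Myf5Cre-Pcyt2 and 0.0580 to 0.371 CPM in control. Of 6 melanocyte markers, cells that share Sox10 and Erbb3 with glia, Tyr had 0 counts in every library, and only Mitf, which muscle also expresses, was tested (log2 fold change −0.35, SE 0.14, adjusted p = 0.114; it passed without control replicate 1 at 0.0428, over a range of 0.0428 to 0.504). The summed level of the melanocyte list was 8.95 to 11.7 CPM in Myf5Cre-Pcyt2 and 10.8 to 14.6 CPM in control. Of 8 motor neuron markers, Chat and Mnx1 had 0 counts, 2 were tested and 0 passed by edgeR, DESeq2 or limma-voom or at an unadjusted p under 0.05, and the summed level was 5.93 to 6.72 CPM in Myf5Cre-Pcyt2 and 5.34 to 6.78 CPM in control, with Prph at −0.13 (SE 0.26, adjusted p = 0.748; sign turned with library size alone). Of 4 T-cell markers only Cd4 was tested (0.11, SE 0.30, adjusted p = 0.821), with a summed level of 0.908 to 1.66 CPM in Myf5Cre-Pcyt2 and 1.04 to 1.39 CPM in control. Of 4 keratinocyte markers Krt5 had 0 counts and only Krt10 was tested (−0.12, SE 0.17, adjusted p = 0.658; sign turned with library size alone), with a summed level of 4.91 to 5.41 CPM in Myf5Cre-Pcyt2 and 4.58 to 6.67 CPM in control.

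The genes whose levels followed the 8 most closely were ranked by Pearson's r between log2 CPM and the mean z-score of the 8 over 6 libraries, among genes with a mean of at least 1 CPM. The mean z-score was 0.64, 1.22 and 0.44 in Myf5Cre-Pcyt2 and −0.64, −0.999 and −0.66 in control, so the difference between the groups is part of every r. The 5 closest were Kifap3, a kinesin-associated protein gene (r = 0.998), Kcna1, a potassium channel gene of myelinated axons (0.998), Gjc3 (0.998), Akap12, a protein kinase A anchor gene (0.997), and Apba1, an adaptor gene of neurons (0.996). Kcna1 had 8.28, 9.96 and 7.90 CPM in Myf5Cre-Pcyt2, against 5.19, 4.76 and 5.45 CPM in control (log2 fold change 0.76, SE 0.15, adjusted p = 0.00797). Akap12 rose by 0.59 (SE 0.09, adjusted p = 0.00414) and Apba1 by 0.57 (SE 0.13, adjusted p = 0.0149), while Kifap3 had 0.16 (SE 0.08, adjusted p = 0.161). Apba1 did not pass without Myf5Cre-Pcyt2 replicate 2 (0.0735) or control replicate 2 (0.052), over a range of 0.00423 to 0.0735, and Kifap3 passed with library size alone (0.0269), over a range of 0.0269 to 0.433.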

How the data were processed

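The deposited values are whole-number counts for each Ensembl gene. According to the submitters' processing notes the authors used Trim Galore 0.5.0, Bowtie2 2.3.4.1, and Subread 1.6.2 for featureCounts, with builds GRCm38 and mm10. What each tool did, the annotation release, the strand setting and the treatment of reads with several positions are not stated there. Symbols, positions and exon lengths came from GENCODE M21, which matched 54495 of 54532 genes. Each column was tied to a sample by the number in its description. Libraries of a group differed beyond sampling noise (chi-square per degree of freedom at least 11.6 for every pair).

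Genes were filtered with filterByExpr and scaled with TMM in edgeR 4.0.16 (R 4.3.3). The quasi-likelihood test of edgeR was two-sided, with Benjamini-Hochberg adjustment over 14715 genes and a threshold of 0.05. Fold changes are Myf5Cre-Pcyt2 over control. With 3 libraries per group, intervals cover the spread between these libraries only. The members, lists and rule for named genes were chosen with earlier results of these data known. The rule took the 8 members, Pcyt2, Myf5, up to 3 past-threshold genes with the smallest p per list (1 tested gene where 0 passed) and the 5 genes closest in pattern. A gene that the rule names is not reported here. The procedure was also run on simulated counts, with far fewer changed genes than were called here. It recovered 56.7% of 67 genes changed 1.5-fold, 85.1% of 67 changed 2-fold and 98.5% of 65 changed 4-fold. Of 177 calls in that run, 18 were genes without a change.

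Of 14 alternatives, 6 left out a library each. The others replaced TMM with the size factors of DESeq2 1.42.0 or with library totals, replaced the test with DESeq2 or with voom of limma 3.58.1, dropped the filter, required at least 1 CPM in 3 libraries, left out the 20 genes with most counts, or added a replicate block.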

Additional observations from a re-analysis of the deposited data

How the results depend on the processing

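Leaving out each library in turn gave 3 to 6 members higher and 0 members lower, 5 to 21 pathway genes higher and 1 lower, and 846 to 2785 genes called in all, against 2739 with every library. The lowest of these counts came without Myf5Cre-Pcyt2 replicate 2, and 1280 and 1300 genes were called without Myf5Cre-Pcyt2 replicate 3 and control replicate 2. The 6 members higher and 0 lower held in 8 of 8 other alternatives. Over 112 values of the 8 members under 14 alternatives, 6 no longer passed and 0 turned sign.

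With library size alone 31 pathway genes were higher, the median of all tested genes moved to 0.21 on the log2 scale, and 86.6% of 3724 called genes were higher, against 48.5% of 2739 with TMM. With no filter on low counts 3 pathway genes were lower. That setting also gave many of the smallest adjusted p in the ranges above, at nearly unchanged fold changes. Examples are Pmp22 (6.87e-06 at a log2 fold change of 0.56) and Mbp (4.09e-07 at 0.61). Signs turned for 4 genes that did not pass: with library size alone for Prph (0.0761), Pecam1 (0.0738) and Krt10 (0.0854), and, when a library was left out, for Prph without control replicate 3 (range −0.257 to 0.0551), Krt10 without control replicate 1 (−0.2422 to 0.0213) and Cd4 without Myf5Cre-Pcyt2 replicate 3 (−0.0917 to 0.3316). The cause was not tested.

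The replicate numbers were not used as pairs: deviations from the group means of same-numbered libraries correlated at −0.111, −0.174 and 0.018, and 1 of 3 Myf5Cre-Pcyt2 libraries correlated best with its own number. With a replicate block 1731 genes were called, with 6 members higher and 15 pathway genes higher. Of the named genes, 5 no longer passed with it: Ckm (adjusted p = 0.0919), Actn3 (0.0655), Tnni2 (0.139), L1cam (0.0591) and Ntrk2 (0.0846). Counting depth was lowest for Cdh19, with 40 to 69 counts per library, and the fold intervals of Cdh19 and Egr2 ran from 0.913 to 1.63 and from 0.928 to 1.78.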
